A study of Homo sapiens with 26 samples.

Results

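Opposite stretches of the circadian day were compared in U2OS cells kept in neutral medium. The late half-day held the pH 7.4 libraries at 16, 20, 24, 40, 44 and 48 h after the change of medium. The early half-day held those at 4, 8, 12, 28, 32 and 36 h, so that every late time point lay 12 h after an early one. These were 12 of the 26 libraries of the series, with 6 in each half-day, and they were chosen by medium and time alone. The pH 7.4 library at 52 h was left out. The 12 libraries at pH 6.3 from 4 to 48 h enter only the last comparison.

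U2OS is an established human osteosarcoma line, and these cells carried a luciferase reporter of the clock gene Arntl. Both half-days shared 1 medium, DMEM at pH 7.4 with 0.1 µM dexamethasone and 5% serum. Its buffers were HEPES and PIPES at 25 mM each, and the dishes were sealed and held without added carbon dioxide. Dexamethasone is a synthetic glucocorticoid that brings the clocks of cells in culture into step. By the labels it was part of the medium, and its targets cannot be told apart from those of the clock by time alone. A set of plates gave the libraries of 4 to 24 h (day 1) and another, started a day earlier, those of 28 to 48 h (day 2). Dishes 24 h apart were harvested in 1 session, so each of the 6 sessions held a single half-day, and session and half-day cannot be told apart. Each time point had 1 library. Time points therefore stand in for replicates, and every SD and p-value below measures the spread over time points, which holds change over time as well as noise.

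The mammalian clock is a transcriptional feedback loop. ARNTL (BMAL1) pairs with CLOCK or NPAS2 and switches on genes through the E-box, among them PER and CRY genes, whose proteins return to inhibit the pair. In a second loop the E-box target genes NR1D1 and NR1D2 encode the REV-ERB repressors, which compete with ROR activators for an element in the ARNTL promoter. The same pair drives DBP, TEF and HLF, activators that bind the D-box, which NFIL3 represses. In U2OS cells, a widely used line for such work, genes of the activating arm and genes with E-boxes are known to peak in opposite parts of the day, which is the contrast that half-days 12 h apart address.

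Promoters are shown here for 5 clock genes whose values carry the comparison, as RefSeq sequence (GRCh38.p14) from 250 bases before to 50 bases after an annotated start, 5′ to 3′ on the strand of the gene. Capitals mark the motifs found. ARNTL (chr11:13277540-13277839, plus strand) and NFIL3 (chr9:91423783-91424082, minus strand) hold the REV-ERB/ROR element, searched as ANTAGGTCA on both strands and present in 0.49% of all 35116 promoters of this length. In ARNTL it begins 28 bases after the start.
ARNTL: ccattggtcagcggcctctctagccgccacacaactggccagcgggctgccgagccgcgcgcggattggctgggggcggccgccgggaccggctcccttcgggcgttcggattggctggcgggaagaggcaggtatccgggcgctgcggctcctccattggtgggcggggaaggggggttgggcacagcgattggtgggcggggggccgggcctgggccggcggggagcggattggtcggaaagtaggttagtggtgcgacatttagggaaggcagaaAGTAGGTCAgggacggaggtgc
NFIL3: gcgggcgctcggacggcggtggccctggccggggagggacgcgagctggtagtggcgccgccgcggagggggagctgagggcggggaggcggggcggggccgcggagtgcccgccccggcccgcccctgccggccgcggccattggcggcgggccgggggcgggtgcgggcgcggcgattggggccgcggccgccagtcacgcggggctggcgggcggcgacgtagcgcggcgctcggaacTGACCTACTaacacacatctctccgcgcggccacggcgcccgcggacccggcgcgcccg

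TEF (chr22:41367205-41367504, plus strand), PER1 (chr17:8152355-8152654, minus strand) and NR1D2 (chr3:23945871-23946170, plus strand) hold the E-box, CACGTG, which 7.26% of all promoters hold. NR1D2 has 2 of them, and also a D-box, searched as TTATGTAA on both strands and present in 0.886% of all promoters. The TEF promoter at a second start (chr22:41381692-41381991) holds an E-box as well. ARNTL, NFIL3 and NR1D2 each have another annotated start, whose promoter held none of the motifs searched. For these genes the promoter with the motif is the one shown.
TEF: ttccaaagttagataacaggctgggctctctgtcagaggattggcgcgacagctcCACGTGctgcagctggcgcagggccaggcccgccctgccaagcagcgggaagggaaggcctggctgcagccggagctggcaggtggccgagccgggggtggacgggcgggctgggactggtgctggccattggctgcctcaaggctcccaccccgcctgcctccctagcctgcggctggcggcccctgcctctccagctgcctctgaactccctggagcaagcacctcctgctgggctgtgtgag
PER1: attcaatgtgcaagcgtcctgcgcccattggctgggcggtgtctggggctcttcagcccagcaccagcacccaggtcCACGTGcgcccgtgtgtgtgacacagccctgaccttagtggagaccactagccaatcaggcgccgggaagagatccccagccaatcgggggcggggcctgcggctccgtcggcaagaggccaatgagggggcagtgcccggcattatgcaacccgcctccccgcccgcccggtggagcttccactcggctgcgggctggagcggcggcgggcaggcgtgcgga
NR1D2: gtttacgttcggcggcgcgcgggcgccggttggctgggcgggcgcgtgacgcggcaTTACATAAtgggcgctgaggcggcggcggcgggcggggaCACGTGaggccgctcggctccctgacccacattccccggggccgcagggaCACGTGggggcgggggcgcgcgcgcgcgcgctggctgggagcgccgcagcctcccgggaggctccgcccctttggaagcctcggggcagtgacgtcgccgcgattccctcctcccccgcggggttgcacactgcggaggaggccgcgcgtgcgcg

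Of 20 clock genes with a promoter in the RefSeq table, 11 held an E-box or its variant CACGTT in at least 1 promoter, and 5 held none of the motifs searched. These are counts of genes over 29 promoters, and no matching share over all genes was computed. Per promoter, CACGTT alone is in 5.34% of all. In promoters of tested genes the shares are 9.25% for the E-box and 6.01% for CACGTT. The other motifs searched, with their shares of all promoters, were a second D-box form, TTACGTAA (0.125%), a second REV-ERB/ROR form, ANTGGGTCA (0.786%), and the cAMP response element, TGACGTCA (1.85%). ARNTL and NFIL3, with the REV-ERB/ROR element, had higher levels in the late half-day. TEF, PER1 and NR1D2, with the E-box, had lower ones. These 5 were chosen by their values, and other clock genes with such motifs did not all follow the same sides. BHLHE40 and BHLHE41 also hold an E-box and had unadjusted limma p of 0.271 and 0.110, with differences of −0.17 and −0.31 on the log2(FPKM + 1) scale. CACGTT is in promoters of CRY1, with a difference of −0.13, and of CLOCK, which was higher late by 0.35. The same CLOCK promoter also holds ANTGGGTCA. PER2, CRY2 and NR1D1 have CACGTT in a promoter too, with differences of −0.71, −0.56 and −1.32. A match of letters is a description and not a binding site.

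Across the transcriptome no gene passed the test. The fit held 11878 genes whose mean FPKM (a fragment count per kilobase of transcript and per unit of library size) reached 1. Of these 0 were higher and 0 lower in the late half-day at a limma adjusted p below 0.05, which is 0% in each direction. At an unadjusted p below 0.05, 1014 genes (8.54%) were higher and 754 (6.35%) lower. The median difference of all genes, on the log2(FPKM + 1) scale, was 0.0024. ARNTL had the smallest p of all, with an adjusted p of 0.112. TEF was the fifth, with an adjusted p of 0.163, the value that limma gave to many genes. Recovery was simulated only with noise drawn independently for each gene and library, without the change over time that these libraries share. It therefore does not give the recovery in these data. In the simulation the fit recovered 85% of changes of 1 and 97% of changes of 2 on the log2 scale. On this scale genes with low values show less than their full change.

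ARNTL (ENSG00000133794, chr11:13276652-13387266, plus strand, in GENCODE 29 on GRCh38), the obligate partner of the activating pair, had the smallest p. Its FPKM ran from 10.4 through a median of 16.8 to 22.3 in the early half-day, and from 28.6 through 34.8 to 43.1 in the late one. Every late library was above every early library on both days, with the peak at 20 h on day 1 and at 48 h on day 2. Its mean was 35.5 ± 5.03 FPKM late against 16.5 ± 4.99 early (SD, n = 6 each). The difference was 1.10 ± 0.15 (SE) on the log2 scale, 0.95 on day 1 and 1.24 on day 2. The exact two-sided permutation of half-days within days gave p = 0.005, the smallest that its 400 arrangements allow. ARNTL passed in 3 other fits that left no library out, with limma adjusted p of 0.0408 after quantile normalization, 0.0454 after upper-quartile scaling and 0.000446 when both media were fitted together. Without the 28 h library the adjusted p was 0.0280, and over the leaving out of each library in turn it ran to 0.345.

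NPAS2 and CLOCK, the alternative partners of ARNTL, also had higher levels late in 6 of 6 pairs of time points 12 h apart. NPAS2 ran from 15.7 through 31.5 to 60.7 FPKM early and from 25.7 through 60.2 to 105 late. The half-days overlapped, because the early libraries of day 2 were as high as the late libraries of day 1, but within each day the late libraries lay above the early ones, as in 2.53% of all genes (1.72% the other way round). CLOCK ran from 29.2 through 33.2 to 37.7 FPKM early and from 35.0 through 41.5 to 49.4 late, and overlapped in the same way. The differences were 0.88 ± 0.18 (SE) for NPAS2 and 0.35 ± 0.07 for CLOCK, with adjusted p = 0.163 for each. The exact permutation p was 0.005 for both. ARNTL2, the paralog of ARNTL, had a difference of −0.05 ± 0.13 and opposite signs on the 2 days.

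Of the REV-ERB and ROR loop, the repressors and the activators took opposite sides. NR1D1, which encodes REV-ERBα, ran from 0.852 through 5.65 to 20.6 FPKM early and from 1.01 through 1.33 to 3.72 late. Its highest values were at 4 and 28 h, the first time point of each day, and its lowest at 12 and 44 h. Its early libraries at 12 and 36 h were no higher than the highest late one. NR1D2, which encodes REV-ERBβ, ran from 13.2 through 33.4 to 38.3 FPKM early and from 5.67 through 14.7 to 23.3 late. It peaked at 8 and 32 h, and its early library at 12 h lay within the late range. The differences were −1.32 ± 0.47 for NR1D1 and −1.16 ± 0.28 for NR1D2, with adjusted p of 0.248 and 0.170.

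NFIL3, a repressor at D-boxes, was in the other direction. It ran from 8.40 through 10.1 to 14.2 FPKM early and from 13.3 through 15.5 to 17.6 late. The half-days overlapped only through the libraries of day 1 at 12 and 24 h, and the difference was 0.53 ± 0.12 with an adjusted p of 0.163. RORA, the ROR gene that passed the filter, ran from 2.25 through 3.38 to 5.38 FPKM early and from 2.91 through 4.78 to 6.61 late, a difference of 0.40 ± 0.14 with an adjusted p of 0.244. RORB lay below the filter.

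**Figure D1:**
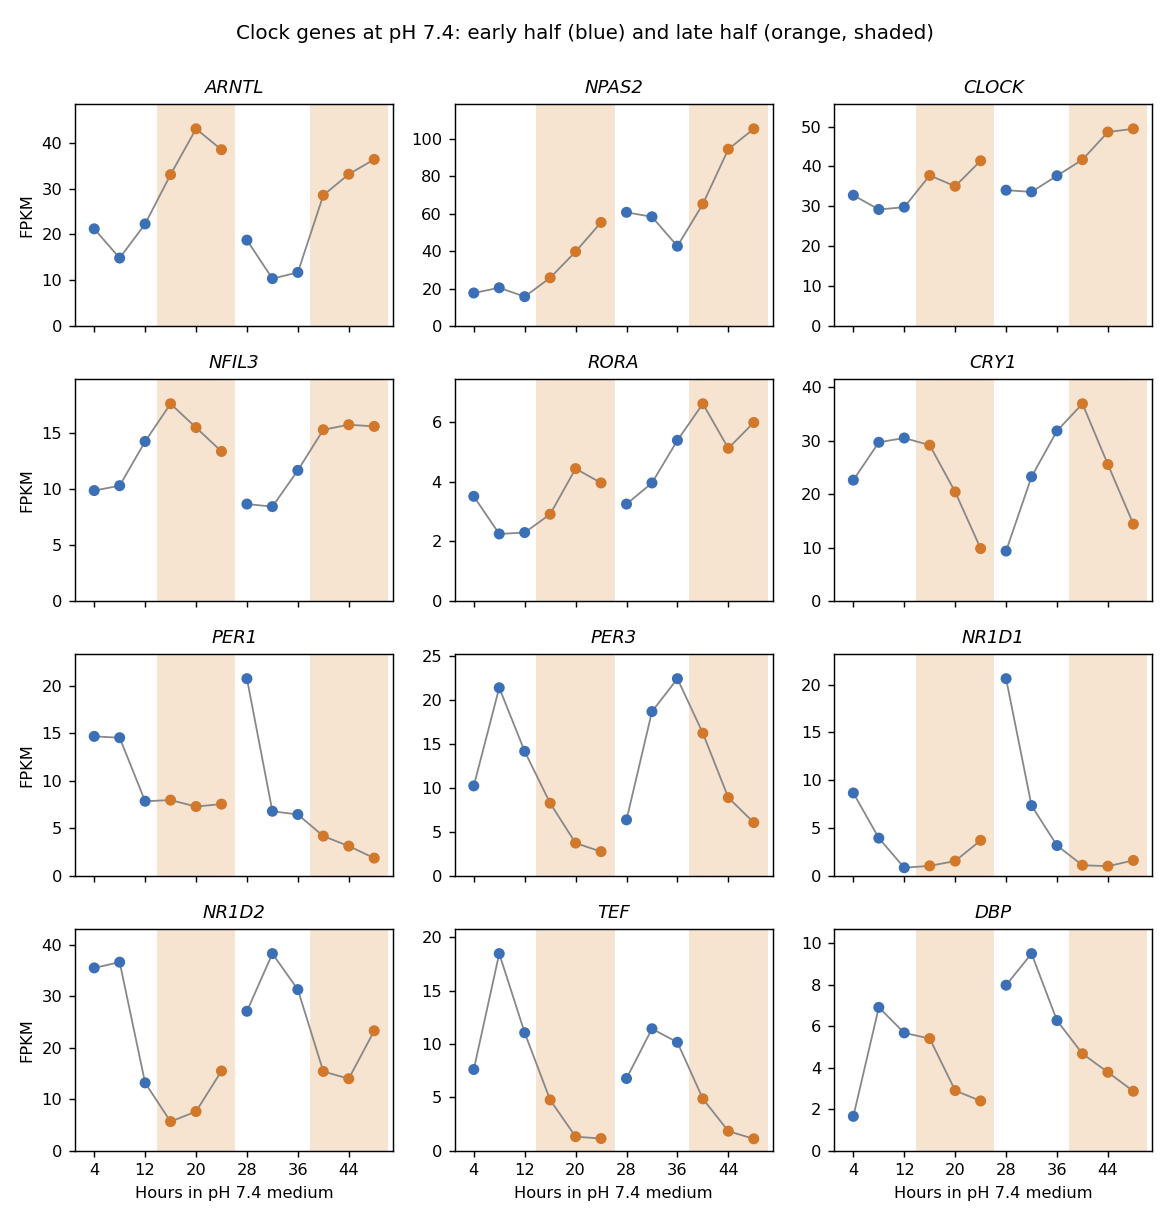
FPKM of 12 clock genes against hours at pH 7.4, with 1 library per point. Blue points are the early and orange points on shading the late half-day, and the line breaks between the plate sets. ARNTL is higher in all 6 late libraries than in any early one and TEF lower, while NR1D1 peaks at the start of each day and CRY1 peaks near the boundary of the half-days.

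The period genes, which encode the inhibitors of the activating pair, had lower levels late. PER1 ran from 6.45 through 11.2 to 20.7 FPKM early and from 1.87 through 5.73 to 7.96 late, lower in 6 of 6 pairs. Its early libraries at 12, 32 and 36 h lay within the late range, and its highest value was at 28 h. PER3 ran from 6.38 through 16.5 to 22.5 FPKM early and from 2.76 through 7.18 to 16.3 late, and its early libraries at 4, 12 and 28 h lay within the late range. PER2 was near the filter, from 0.651 through 1.90 to 2.32 early and from 0.162 through 0.517 to 1.77 late. The differences were −1.02 ± 0.29 for PER1, −1.01 ± 0.36 for PER3 and −0.71 ± 0.22 for PER2. None passed, with adjusted p from 0.199 to 0.248, and the exact permutation p were 0.01, 0.035 and 0.03.

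The cryptochromes, the partners of the period proteins, were not separated by these half-days. CRY1 ran from 9.35 through 26.5 to 31.9 FPKM early and from 9.82 through 23.0 to 36.9 late. Its peaks fell at 12 and 40 h, on either side of the boundary, and its lowest values at 24 and 28 h, next to each other in the day. Within each day it still spanned 3.11-fold and 3.95-fold between its lowest and highest library. The difference of −0.13 ± 0.34 averages these high and low points within each half-day. CRY2 ran from 3.72 through 5.34 to 8.68 FPKM early and from 1.51 through 3.54 to 7.22 late, a difference of −0.56 ± 0.31 with an adjusted p of 0.398.

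Among the output regulators, TEF (ENSG00000167074, chr22:41367333-41399326, plus strand) had half-days that did not overlap. It ran from 6.77 through 10.6 to 18.5 FPKM early and from 1.12 through 1.58 to 4.87 late. No early library was as low as any late one, and the peaks were at 8 and 32 h. Its mean was 10.9 ± 4.14 FPKM early against 2.51 ± 1.80 late (SD, n = 6 each), 4.35 times as high. The difference was −1.84 ± 0.32 on the log2 scale, −2.05 on day 1 and −1.64 on day 2, with an exact permutation p of 0.005.

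DBP, its relative, ran from 1.66 through 6.60 to 9.51 FPKM early and from 2.40 through 3.35 to 5.41 late. Its early library at 4 h was the lowest of all 12, and the difference was −0.57 ± 0.27 with an adjusted p of 0.348. HLF lay below the filter, at 0.381 to 1.05 FPKM early and 0.177 to 0.669 late. BHLHE40 and BHLHE41, E-box repressors, differed by −0.17 ± 0.15 and −0.31 ± 0.18. In all, 11 of the 17 tested clock genes (64.7%) had an unadjusted p below 0.05, 5 higher and 6 lower late. Of all genes 14.9% did. None of the 17 passed after adjustment.

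**Figure D2:**
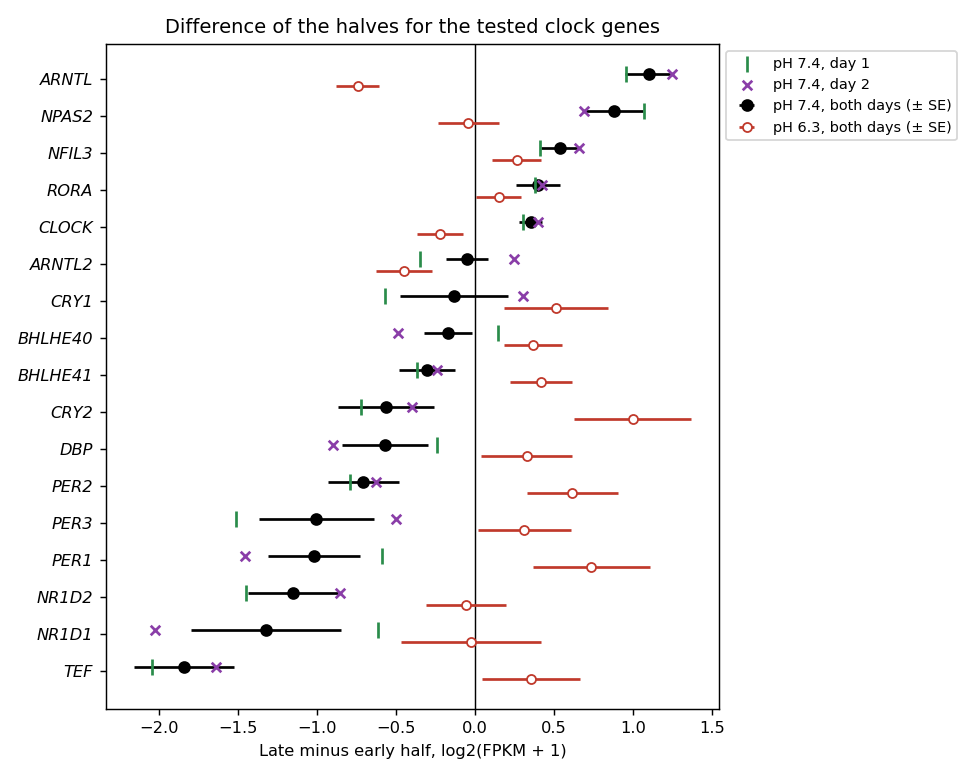
Late minus early difference in log2(FPKM + 1) for the 17 tested clock genes. Black points with SE bars are pH 7.4 over both days, green bars day 1, purple crosses day 2, and open red points with SE bars pH 6.3. At pH 7.4 ARNTL lies at 1.10 and TEF at −1.84, with both days on the same side, whereas ARNTL at pH 6.3 lies at −0.74.

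Regulators and targets around the clock held fewer such genes. Of 12 tested kinase and ubiquitin ligase genes that act on clock proteins, 1 was higher and 4 lower at an unadjusted p below 0.05. These are 8.33% and 33.3%, beside 8.54% and 6.35% of all genes, and the median difference was −0.05. USP2, a deubiquitinase and itself a clock target, was 1.28 ± 0.64 FPKM late against 2.48 ± 1.20 early (SD, n = 6 each), lower in 6 of 6 pairs. FBXL17, a subunit of a ubiquitin ligase, was higher by 0.35 and in 6 of 6 pairs. Of 11 tested clock-controlled genes 1 was higher and 2 lower (9.09% and 18.2%). WEE1, a mitotic kinase that the clock is known to drive, was higher by 0.22.

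Other genes of small p, none of which passed, had differences of the same order as CLOCK and NPAS2. On the higher side were NPC1, the lysosomal cholesterol transporter, at 78.2 ± 23.6 FPKM late against 52.3 ± 21.2 early (SD, n = 6 each). GPNMB, a glycoprotein of melanosomes and lysosomes, was at 56.2 ± 24.9 against 33.9 ± 18.7 FPKM. SLC17A5, the lysosomal sialic acid exporter, was at 23.8 ± 6.95 against 17.3 ± 5.17 FPKM. These 3 lysosomal genes were singled out after their values were seen. DYNC1I1, CAMK2D, TMEM144, GBP3, CCBL2 and CEP112 completed that side, with differences from 0.33 to 0.73.

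CEP112, a centrosomal protein gene, had the tightest values of these. It ran from 19.0 through 20.8 to 22.2 FPKM early and from 25.0 through 26.2 to 27.5 late, so that the half-days did not overlap. It was 1 of 17 genes (0.143%) with all 6 late libraries above all 6 early ones, as was ARNTL. In 6 genes (0.0505%) all late libraries lay below all early ones: TEF, RALGDS, TIMP3, GPR176, TRNP1 and TBL1X. GPR176 encodes an orphan receptor known from the clock of the brain. It was 27.9 FPKM early and 20.1 late on average, with an adjusted p of 0.192. RALGDS, TIMP3, TRNP1, TBL1X and GPR176 were picked out after their values were seen.

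On the lower side, MT1E, a metallothionein that glucocorticoids and zinc induce, ran from 169 through 289 to 435 FPKM early and from 135 through 178 to 257 late. The difference was −0.61 ± 0.10, with 6 of 6 pairs lower and overlap across days. CTGF, a target of the YAP pathway, was at 84.7 ± 11.6 FPKM late against 117 ± 32.1 early (SD, n = 6 each). GFPT2, NPTN, RPL6, NME1 and ZWINT had differences from −0.71 to −0.31, each lower in 6 of 6 pairs. Of all genes, 6.33% were higher and 3.74% lower in all 6 pairs.

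The gene lists differed in how many of their members had an unadjusted p below 0.05, and none had a member that passed after adjustment. Where more than 1 member of a list is named, the further ones were picked after their values were seen. Cytosolic ribosomal protein genes had the most: 58 of 83 were lower and 1 higher, with a median difference of −0.31. Of all genes 6.35% were lower and 8.54% higher. Under quantile normalization 29 were lower and 2 higher, with a median of −0.13, beside 6.25% of all genes lower and 8.93% higher. RPL6, a protein of the large subunit, was at 1080 ± 200 FPKM late against 1337 ± 257 early (SD, n = 6 each). RPL11 was at 771 against 969 FPKM and RPS29 at 1597 against 2184 FPKM on average. The single higher member was RPL39L, a paralog expressed at 32.5 against 26.3 FPKM. Counts of ribosomal protein genes are uncertain because reads can be split with their many near-identical pseudogenes.

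Of 15 serum response factor (SRF) and YAP targets, 8 were lower and 1 higher. The shares over all genes, for this list and the next ones, were 6.35% lower and 8.54% higher. The contractile genes TAGLN and CNN1 were lower by 0.97 and 0.87, and THBS1 by 0.85, while ANKRD1 was higher by 0.58. Of 14 glucocorticoid targets 6 were lower and 0 higher, among them DUSP1, a phosphatase of MAP kinases, by 0.70, NFKBIA by 0.58 and PER1. FKBP5, a standard glucocorticoid target, had a difference of −0.13 ± 0.20. It was highest at 12 h, at 51.6 FPKM, and lay between 18.5 and 20.9 FPKM on the whole of day 2. Of 25 ATF4 targets 9 were lower, such as the amino acid transporter genes SLC7A5, by 0.94, and SLC3A2, by 0.32.

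Ribosome biogenesis genes were lower in 9 of 30, with FBL, the nucleolar methyltransferase, at 169 against 225 FPKM. Glycolysis genes were lower in 6 of 19 and G1/S genes in 6 of 25. Again 6.35% of all genes were lower and 8.54% higher. On the higher side, RRAGC and RRAGD, encoding Rag GTPases of the mTOR pathway, had differences of 0.37 and 0.64, with 4 of that list's 25 members higher and 3 lower. Of 13 genes of mitochondrial DNA 3 were higher. Endoplasmic reticulum stress and cholesterol genes were near the share of all genes, with 1 of 18 and 2 of 23 higher.

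**Figure D3:**
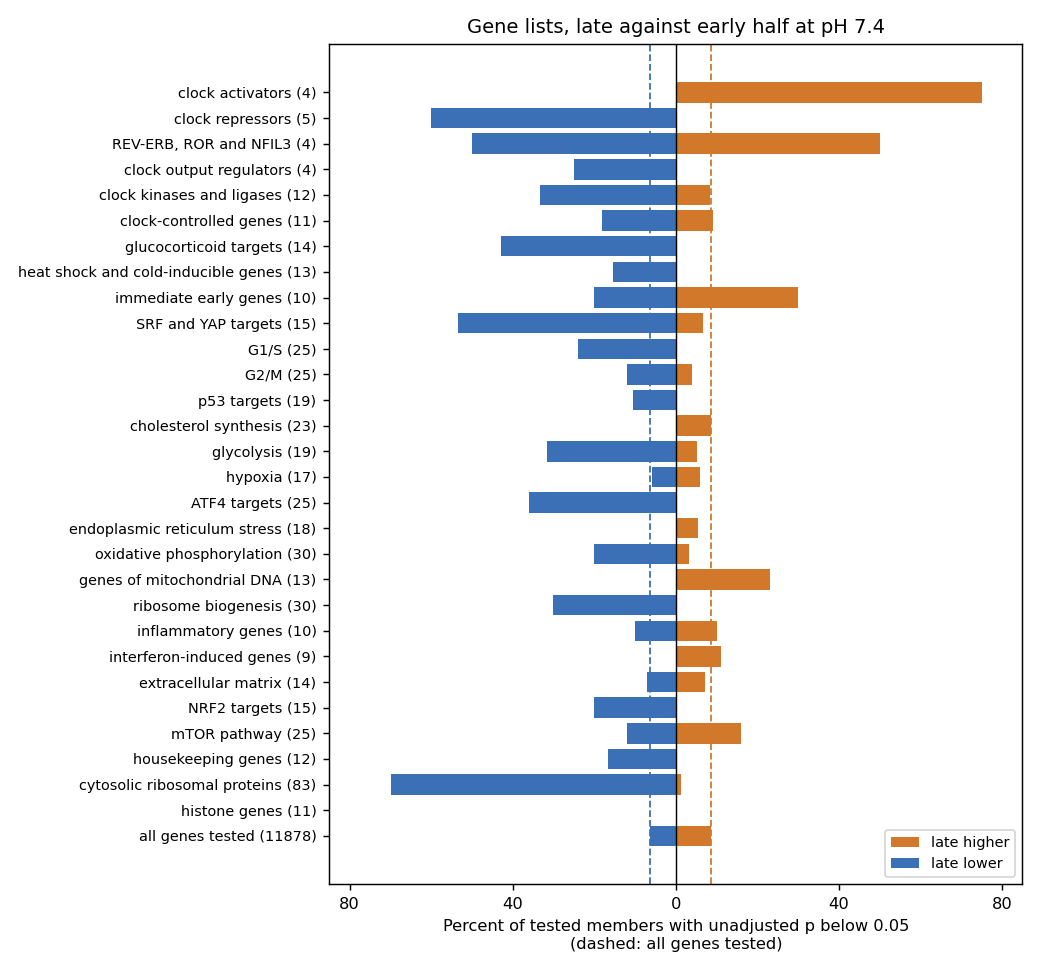
Percent of the tested members of each gene list with an unadjusted p below 0.05, late higher to the right (orange) and late lower to the left (blue), with the number tested in brackets. Dashed lines give the share over all tested genes, 8.54% higher and 6.35% lower. Cytosolic ribosomal protein genes reach 69.9% lower, and the clock lists lie on both sides.

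A late time point also lies later in culture, so steady change over the 48 h enters the comparison. The share of all FPKM in ribosomal protein genes ran from 14.9% at 4 h to 9.3% at 48 h. With a linear trend over time in place of the day block, 136 genes (1.14%) were higher and 77 (0.648%) lower at an unadjusted p below 0.05. Under that trend 0 of 83 ribosomal protein genes had such a p, with a median difference of −0.05. The same was true of 0 of 15 SRF and YAP targets, 0 of 25 ATF4 targets, 0 of 30 ribosome biogenesis genes and 0 of 19 glycolysis genes. Of the 17 clock genes 9 had such a p, 3 higher and 6 lower. With a GC correction and the trend together, a fit added later, 7 had it, 2 higher and 5 lower. Of all genes 1.3% were higher and 1.29% lower in that fit.

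Clock genes also had the smallest p under the trend. ARNTL came first, with a difference of 1.27 ± 0.17 (SE) and an adjusted p of 0.0877, followed by TEF at −1.75 ± 0.35, NR1D2 at −1.45 ± 0.31, MMRN2 at −1.15 ± 0.25 and NFIL3 at 0.57 ± 0.13. For TEF, NR1D2, MMRN2 and NFIL3 the limma adjusted p was 1.00. MMRN2, an extracellular glycoprotein known from blood vessels, ran from 2.51 through 3.54 to 5.26 FPKM early and from 0.312 through 0.887 to 2.52 late. Its half-days touched at a single value. NPAS2, whose level also climbed from day 1 to day 2, RORA and PER1 no longer had an unadjusted p below 0.05 under the trend. PER1 went from −1.02 to −0.61, with an unadjusted p of 0.0511, NPAS2 from 0.88 to 0.23 and RORA from 0.40 to 0.15. DBP had such a p only under the trend, with a difference of −0.76 and an unadjusted p of 0.0290.

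Most of the other genes of small p had smaller differences under the trend. Of the 16 named above outside the clock list, 4 had an unadjusted p below 0.05 there: CEP112, TMEM144, GBP3 and NPTN. NPC1 went from 0.61 to 0.18, GPNMB from 0.79 to 0.14, SLC17A5 from 0.44 to 0.08 and DYNC1I1 from 0.73 to 0.20. On the lower side MT1E went from −0.61 to −0.22 and GFPT2 from −0.71 to −0.10.

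The 2 days did not give the same picture for most genes. The sign of the difference was the same on both days in 44.6% of genes. At an unadjusted p below 0.05 the difference itself differed between days in 3275 genes (27.6%), 684 (5.76%) with a larger and 2591 (21.8%) with a smaller value on day 2. None passed after adjustment, with a smallest limma adjusted p of 0.0860. Without the library at 12 h, the shallowest, 81 genes with a larger and 242 with a smaller value passed.

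The genes given next had the smallest p for that difference, so a course that did not repeat follows from the choice. IL7R, a cytokine receptor subunit, ran from 29.2 to 40.0 FPKM at 4 to 12 h and from 6.95 to 15.6 FPKM thereafter. HSPA8, a constitutive chaperone, was at 2114, 2158 and 2138 FPKM at 4, 8 and 12 h and reached 966 FPKM at 28 h. RAB11FIP4, a regulator of endosome traffic, went from 15.3 FPKM at 4 h to 145 FPKM at 28 h and 31.5 FPKM at 48 h. Their limma differences between days were 1.60 ± 0.25, 1.08 ± 0.18 and −3.12 ± 0.47 (SE), each with an adjusted p of 0.0860. ITGA5 and TSPAN5 had −1.17 ± 0.19 and 0.92 ± 0.15. For the clock genes, as for all genes, the difference between days did not pass. ARNTL, CLOCK, NPAS2 and TEF had limma adjusted p from 0.519 to 0.716. ARNTL2 and BHLHE40, at 0.60 and −0.63, had unadjusted limma p of 0.0158 and 0.0249.

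The libraries differed in a property that moved over the days. The correlation across genes between GC content and a library's deviation from the mean of all 12 went from 0.06 at 4 h to 0.50 at 24 h, and from 0.78 at 28 h to −0.72 at 48 h. Its mean was 0.06 early and 0.38 late on day 1, and 0.19 early and −0.59 late on day 2. Between the half-days it differed by −0.22, with an exact permutation p of 0.415. Across genes the late minus early difference had a correlation of −0.58 with GC content, and the difference between days one of −0.72. With the GC trend of each library removed, 11 of 17 clock genes and 67 of 83 ribosomal protein genes (lower) had an unadjusted p below 0.05, beside 7.35% of all genes higher and 8.77% lower. The difference between days was then below 0.05 for 877 genes with a smaller value on day 2.

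**Figure D4:**
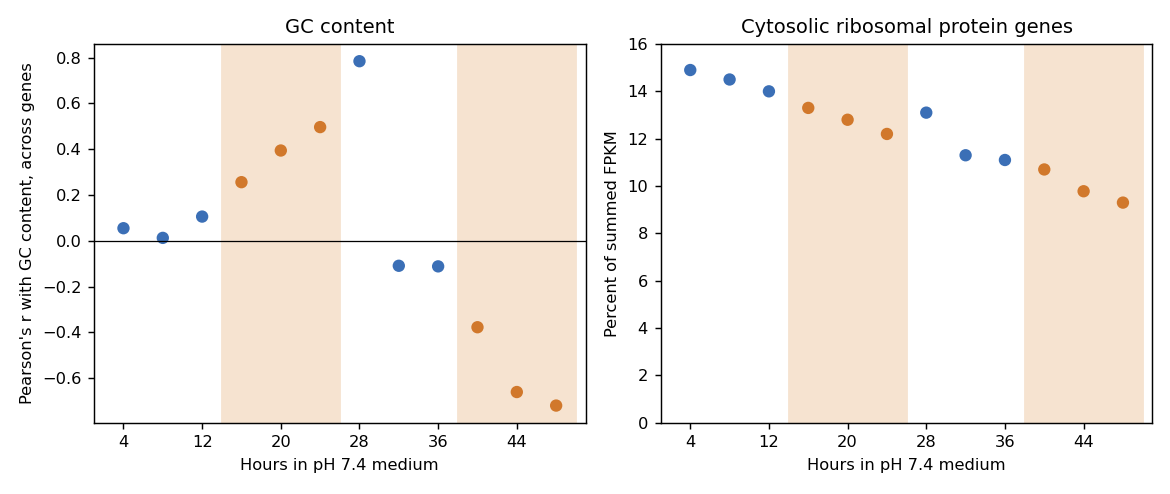
Properties of the 12 libraries against hours at pH 7.4, early in blue and late in orange on shading. The left panel gives Pearson's r across genes between GC content and the deviation from the mean of the libraries, which climbs to 0.50 on day 1 and goes from 0.78 to −0.72 on day 2. The right panel gives the percent of summed FPKM in cytosolic ribosomal protein genes, from 14.9% at 4 h to 9.3% at 48 h.

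The steps between low FPKM values gave an estimated depth of 20.3 to 31.8 M fragments (M for mega) in 11 libraries and 9.7 M at 12 h. The correlation between libraries over tested genes was 0.886 to 0.994, and none were identical. Of 10 mesenchymal markers 8 had a mean of at least 1 FPKM, with COL1A2 and NT5E below it. Their summed level was 1956 to 2692 FPKM early and 1491 to 2161 late. Of 10 epithelial markers 7 did, summing to 195 to 325 FPKM early and 162 to 272 late, led by KRT8 and KRT18, with CDH1 and KRT19 below 1 and CLDN3 at 0. Leukocyte and endothelial markers had 1 of 10 (LCP1) and 1 of 8 (ERG). PECAM1, ITGAM, CD68 and CORO1A had means below 1 FPKM but reached 2.664, 1.984, 1.835 and 1.724 FPKM in their highest libraries. All others of these lists were below 1 FPKM in every library, PTPRC, CD3E, CDH5 and VWF among them. The part of the marker genes in the differences was not tested.

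Whether the half-days differed in the same way in acidic medium was tested in 1 fit of 24 libraries. The acidic arm shared the medium, dexamethasone and harvest sessions, at pH 6.3. The difference between late and early differed between media for 22 of 11824 genes (0.186%) at a limma adjusted p below 0.05, and for 20.9% at an unadjusted p below 0.05. Of the 22, 5 were larger and 17 smaller at pH 6.3, and the named genes among them were ARNTL, TEF, MMRN2, NOL6, PXDN, C6orf48 and DYNC1I1. With the time point, which the media share, as a block, 1 larger and 1 smaller value passed, those of MMRN2 and ARNTL, and the other 5 named genes had an adjusted p of 0.154. Leaving out 1 time point at a time gave from 1 to 79 larger and from 1 to 114 smaller values, the most without 40 h. In the fit without that block, which pools the spread of both media, ARNTL and TEF passed at pH 7.4, with limma adjusted p of 0.000446 and 0.0280.

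ARNTL at pH 6.3 ran from 15.3 through 18.9 to 23.5 FPKM early and from 7.93 through 10.0 to 16.0 late. This is the reverse of its order at pH 7.4. The half-days overlapped across days, but within each day every late library lay below every early one. The difference was −0.74 ± 0.14 (SE) at pH 6.3, where ARNTL fell with an adjusted p of 0.00540, and 1.10 at pH 7.4. The media differed by −1.84 ± 0.19, with a limma adjusted p of 2.1e-05, and of 0.00326 with the time point as a block. Over the leaving out of each time point in turn the value stayed between −1.93 and −1.73.

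TEF at pH 6.3 ran from 2.35 through 5.66 to 25.6 FPKM early and from 4.15 through 6.95 to 23.7 late, with wide overlap. Its difference was 0.35 ± 0.31, against −1.84 at pH 7.4. The media differed by 2.20 ± 0.44 with an adjusted p of 0.0381, which became 0.154 with the time point as a block and stayed below 0.05 in 4 of the 12 fits that each left out 1 time point. MMRN2 at pH 6.3 ran from 2.19 through 3.17 to 7.45 FPKM early and from 6.20 through 8.90 to 11.5 late, the other way round from pH 7.4. Its difference between media was 2.25 ± 0.33, with an adjusted p of 0.00444.

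Of the 17 clock genes, 12 (70.6%) had opposite signs in the 2 media, beside 51% of all genes. Apart from ARNTL and TEF none passed the test of the difference. The nearest were NPAS2 and PER1, at −0.92 ± 0.27 and 1.76 ± 0.52 with an adjusted p of 0.106 each. PER1 ran from 14.0 through 17.9 to 84.6 FPKM early and from 17.0 through 38.4 to 132 late at pH 6.3, with wide overlap. NFIL3 and RORA had the same sign in both media, and their difference between media was −0.27 ± 0.22 and −0.25 ± 0.20. At pH 6.3 itself, 467 genes (3.95%) were higher and 468 (3.96%) lower in the late half-day at an adjusted p below 0.05.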

How the data were processed

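The authors deposited 1 table of FPKM values for 26 libraries of polyadenylated RNA, made with a stranded kit per the labels' protocols. STAR, Cufflinks and the build hg38 are named in the submitters' processing notes. Neither versions, annotation nor use of strand are stated there. Of 19806 gene rows 1448 were at 0 throughout, and for 101 repeated symbols the row of highest mean was kept, leaving 19704.

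The 12 libraries of pH 7.4 from 4 to 48 h were tested as log2(FPKM + 1), for genes with a mean FPKM of 1 or more, with limma 3.58.1 under R 4.3.3. Its prior variance followed the mean, p-values were adjusted by Benjamini-Hochberg with a threshold of 0.05, and day was a block. Further fits tested day by half-day in the same 12 libraries and medium by half-day in 24, with day within medium. Single clock genes also had an exact two-sided permutation of half-days within days. GC content, coordinates and transcript lengths came from GENCODE 29, and promoters from RefSeq. Depth is a rough estimate, from 1808 genes with 1 transcript, because totals of reads are not in the table. Between 90% and 94.2% of the low values used lay within 0.1 of a whole number of fragments.

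Genes were named by rule: the tested clock genes, the 10 of smallest p per direction with at least 5 FPKM and 1 direction in 6 of 6 pairs, the member of smallest p of each list, and 5 genes per interaction test. Some that it took are given only within their list's counts or are not reported here, and names beyond it were chosen after their values were seen. The members and the 34 gene lists were chosen with earlier results of these data known, so no list was tested. Alternatives covered the pseudocount (0.1), filters, scaling, GC content, the block, a linear trend, harvest sessions, single days and each library left out. The steps were tested on simulated data.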

Additional observations from a re-analysis of the deposited data

Results flagged for a closer look

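In 7 of 144 half-days of 72 named genes, 1 library lay far from the other 5 by Dixon's criterion (gap over range above 0.625). For independent values chance gives about 1 in 20. These values are time points of a course, so that rate is no measure for them. Most of these 7 were in clock genes, which made up 17 of the 72. NR1D2 was at 13.2 FPKM at 12 h, below the other early libraries. PER2 was at 0.651 FPKM and CRY1 at 9.35 FPKM at 28 h, the lowest early values of each. NR1D1 was at 3.72 FPKM at 24 h, the highest late value, next in the day to its peak at 28 h. DBP was at 1.66 FPKM at 4 h, against 7.99 FPKM at 28 h, the same point of the day in the other set of plates. Outside the clock, IL7R was at 15.6 FPKM at 16 h and HIST1H1C, a linker histone gene, at 29.9 FPKM at 28 h, the library with the highest GC correlation of the 12 (0.78).

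For 7 named genes the late minus early difference differed between media, given as pH 6.3 minus pH 7.4 with the limma adjusted p. The values were −1.84 for ARNTL (2.1e-05), 2.20 for TEF (0.0381), 2.25 for MMRN2 (0.00444) and 0.86 for NOL6, a nucleolar protein gene (0.0290). They were −0.81 for PXDN, a peroxidase of the extracellular matrix (0.0290), 0.63 for C6orf48 (0.0107) and −1.23 for DYNC1I1, a dynein subunit gene (0.0290). With the time point as a block ARNTL and MMRN2 kept an adjusted p below 0.05, and the other 5 had 0.154 each.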

How the results depend on the processing

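Of 1582 alternative values for the 53 genes reported, 1557 kept the direction and the call, 16 had the other sign and 9 passed the adjusted threshold. No gene passed in the main fit, so no call could be lost, and a much smaller difference of the same sign counts as kept. DYNC1I1, at 0.73 in the main fit and 0.20 with a linear trend, is such a case. The count is therefore no measure of how stable the sizes are. Recovery of changes under 1 on the log2 scale was not simulated, and values of few FPKM rest on few fragments, the fewest at 12 h.

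For late against early, the adjusted calls were 1 higher under quantile normalization and 1 higher under upper-quartile scaling (ARNTL in each), 1 lower with pairs as the block, and 1 higher and 1 lower with both media in 1 fit (ARNTL and TEF). With a GC correction and pairs together, added after seeing the data, 2 higher and 10 lower genes passed, among them RPL6, RPL11, RPS29 and TAGLN. Without 1 library at a time there were 0 or 1 higher and 0 lower. At an unadjusted p below 0.05 the counts were 465 higher and 294 lower without a block, 136 and 77 with a linear trend, 154 and 153 with a GC correction and a linear trend (added later), 670 higher with both media in 1 fit, and 2270 lower on day 2 alone. Leaving out 1 library gave 771 to 1327 higher and 473 (without 48 h) to 929 lower; the cause was not tested.

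The sign turned for 9 of these 53 genes, all at an adjusted p above 0.19 in those fits. With a linear trend FKBP5 was at 0.22 and RRAGD at −0.16. With a GC correction and a linear trend TAGLN was at 0.053, CNN1 at 0.071, FKBP5 at 0.17, SLC3A2 at 0.011, RRAGC at −0.043 and RRAGD at −0.21. On day 1 alone BHLHE40 was at 0.14, and on day 2 alone ARNTL2 was at 0.25, CRY1 at 0.30 and FKBP5 at 0.013. Without the 12, 28, 44 and 48 h libraries FKBP5 was at 0.0081. Without 1 library ARNTL2 ran from −0.13 to 0.035 and CRY1 from −0.40 to 0.10.

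For the difference between days, unadjusted counts were 1599 larger and 1646 smaller on day 2 under quantile normalization and 877 smaller with a GC correction (added later). Leaving out 1 library gave 0 to 81 larger and 0 to 242 smaller after adjustment, the highest without 12 h, and 421 to 987 larger and 1716 to 2908 smaller before it.

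For the difference between media, where 5 larger and 17 smaller values at pH 6.3 passed, there were 8 and 28 with a pseudocount of 0.1, 32 and 80 under quantile normalization, 28 smaller with a mean of at least 5 FPKM, 1 and 1 with the time point as a block and 24 and 54 with a GC correction (added later). Without 1 time point at a time they ran from 1 to 79 larger and from 1 to 114 smaller, the highest without 40 h, and unadjusted counts from 866 to 1679 and from 752 to 1438. The labels give no replicate numbers, so pairing was by time: 6 pairs 12 h apart at pH 7.4, and shared time points between media.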
